A study of Mus musculus with 6 samples.

Results

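Aminoacyl-tRNA synthetases are the enzymes that attach each amino acid to its transfer RNA. The data hold 36 of their genes, taken by name from a deposited table of 23203 loci: 20 genes for cytosolic enzymes and 16 for mitochondrial enzymes, whose names end in 2. The RNA came from mouse T helper 17 (Th17) cells, the IL-17-producing helper T cell type. Every culture started from naive CD4 T cells, stimulated for 48 h through plate-bound anti-CD3e at 10 µg/ml and anti-CD28 at 1 µg/ml. All of them also held 3 cytokines, namely TGFb1 at 2.5 ng/ml, IL-23 at 10 ng/ml and IL-6 at 20 ng/ml. The cultures of 3 libraries had DMSO as vehicle, and those of the other 3 had 250 µM 2-deoxyglucose (2DG), which competes with glucose in the first steps of glycolysis. Sample titles carry the numbers 17, 42 and 43 in each group, for replicates 1, 2 and 3, and no label says whether a number stands for an animal, a culture or anything else, so p-values describe only how these libraries spread, and that spread may be technical.

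Each synthetase serves one amino acid, apart from the fused enzyme of Eprs, which serves glutamate and proline. Cells keep separate sets for the cytosol and for mitochondria, where a small number of proteins of the respiratory chain are made, and the genes of both sets lie in the nucleus. Gars and Kars are exceptions, since each encodes both the cytosolic and the mitochondrial form. Activated T cells make protein at a high rate. When amino acids run short or the endoplasmic reticulum is stressed, the transcription factor ATF4 raises genes of amino acid synthesis and import together with many cytosolic synthetase genes.

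With 2DG no synthetase gene passed the test in either direction. Levels are given as FPKM, fragments per kilobase of transcript scaled by library, which divides by transcript length and so allows genes to be compared. Differences are given as log2 fold changes of FPKM + 1, 2DG minus vehicle, from limma fitted to the 10228 loci that averaged 1 FPKM or more, a filter that all 36 genes passed. The threshold was a Benjamini-Hochberg adjusted p of 0.05, which 2.72% of tested loci passed (156 higher and 122 lower; 52 to 98 higher and 25 to 69 lower with any 1 library left out). Among the synthetase genes the limma count was 0 of 36, and the lowest adjusted p was 0.13. At an unadjusted p under 0.05 there were 5 genes with higher values (Nars, Yars, Iars, Sars2 and Wars2; 13.9% of the 36, against 9.07% of all loci) and 1 with lower values (Tars2; 2.78% against 8.82%).

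The differences were small and closely bounded. For 35 of the 36 genes, all but Lars2, the 95% interval of the fold change lay within 1.5-fold either way, as it did for 74.2% of tested loci. The widest bounds were a fold of 0.682 for Pars2 and of 1.49 for Wars2. The pooled standard deviation within groups had a median of 0.098 on the log2 scale over these 35 genes and 0.144 over all tested loci. It ran from 0.029 for Farsb to 0.292 for Rars2. With each library left out in turn, 31 to 33 of the 35 intervals stayed within 1.5-fold, and rescaling the libraries to an equal FPKM sum left 25.

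**Figure D1:**
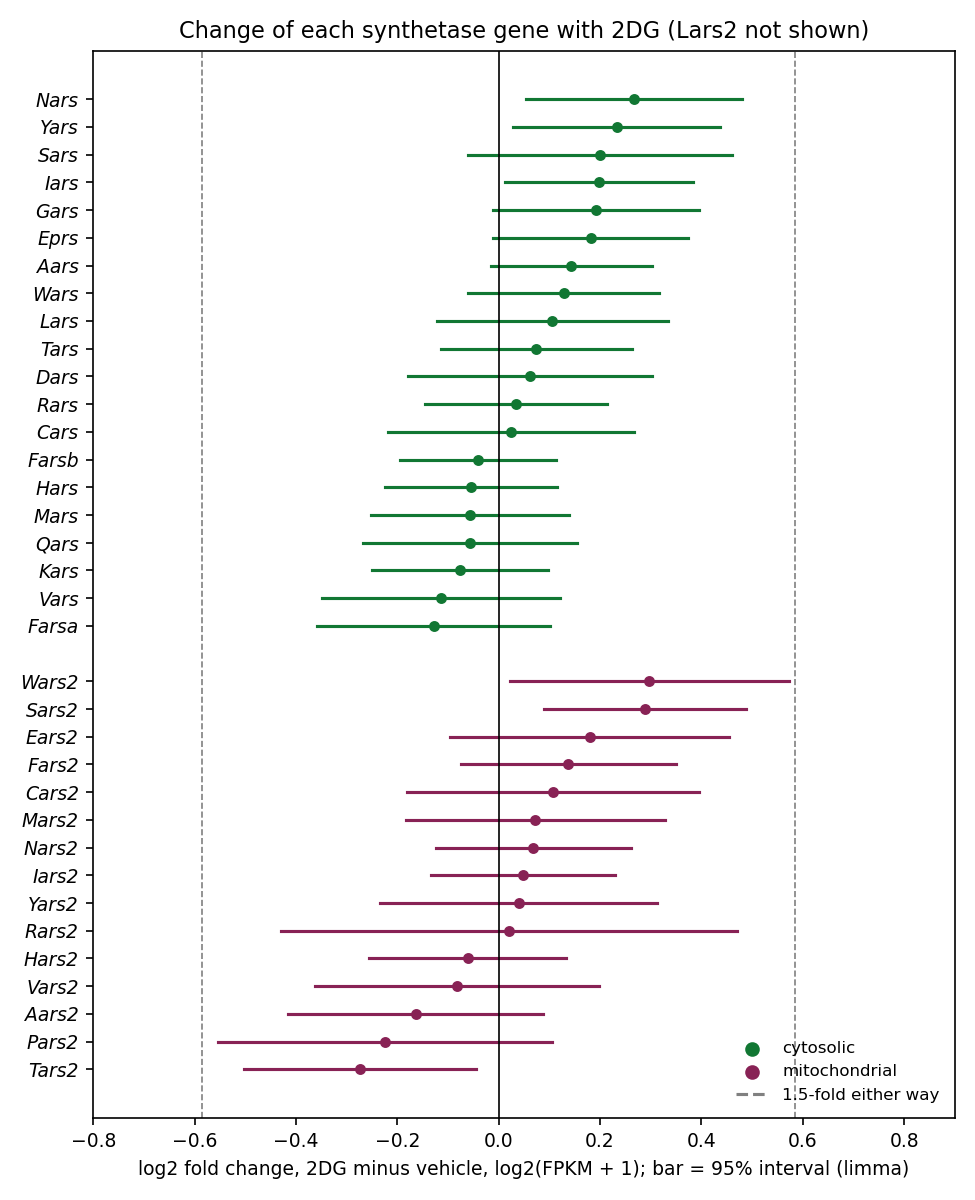
Log2 fold change of FPKM + 1 (2DG minus vehicle, horizontal axis) for 20 cytosolic (green) and 15 mitochondrial (purple) synthetase genes, with bars for the 95% interval from limma and dashed lines at 1.5-fold. Every bar shown lies between the dashed lines; Lars2 is left out because its interval runs from -4.90 to 2.18.

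The libraries carried the transcripts of Th17 cells. Summed over the T cell markers Cd3e, Cd3g, Cd4 and Lck, levels were 497 to 570 FPKM with vehicle and 517 to 577 FPKM with 2DG. The B cell marker Cd79a was at 0.319 to 0.594 FPKM under vehicle and at 0.0945 to 0.801 FPKM under 2DG. Summed myeloid markers (Lyz2, Csf1r, Cd14, Itgam) were 0.329 to 2.59 and 0.535 to 2.01 FPKM, and those of CD8 and NK cells (Cd8a, Cd8b1, Ncr1, Klrb1c) 2.76 to 3.31 and 2.91 to 5.51 FPKM, with Klrb1c listed at 0 in every library. The Th17 markers Il17a, Rora and Ccr6 passed the test, each higher with 2DG, and the 4 T cell markers did not. In such bulk samples fewer cells of a type and less RNA per cell cannot be told apart.

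Cytosolic synthetase genes were well expressed. Their mean levels ran from 40.4 FPKM for Cars to 174 FPKM for Gars, and all 20 lay above 35.5 FPKM, the 75th percentile of the means of tested loci. Next below Gars, for glycine, came Nars for asparagine, and the order ended with Wars for tryptophan, Yars for tyrosine and Cars for cysteine. Of the 19 pairs of neighbours in this order, 18 overlapped in their libraries and only Yars and Cars were apart. Farsb and Farsa encode the subunits of the phenylalanine enzyme, and Farsb was 1.14 times the level of Farsa with vehicle and 1.21 times with 2DG. The median over the 20 genes was 84.2, 87.7 and 85.3 FPKM in vehicle libraries 1 to 3 and 79.8, 87.4 and 85.1 FPKM in 2DG libraries 1 to 3, so the groups overlapped.

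Mitochondrial synthetase genes lay lower. Without Lars2 their means ran from 2.85 FPKM for Wars2 to 38.0 FPKM for Iars2, the enzyme gene for isoleucine, and 5 of the 15 exceeded 14.7 FPKM, the median of tested loci. Of 14 pairs of neighbours in their order, 11 overlapped; Tars2 was apart from Cars2, Rars2 from Mars2 and Ears2 from Wars2. Their median by library was 9.07, 10.9 and 9.79 FPKM under vehicle against 11.6, 11.5 and 10.6 FPKM under 2DG. In 3 of the libraries (vehicle 2, 2DG 2 and 2DG 3) each of the 20 cytosolic genes was above each of these 15. In the other 3 libraries 19 cytosolic genes were, the exception being Cars, which lay just under Iars2 there.

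**Figure D2:**
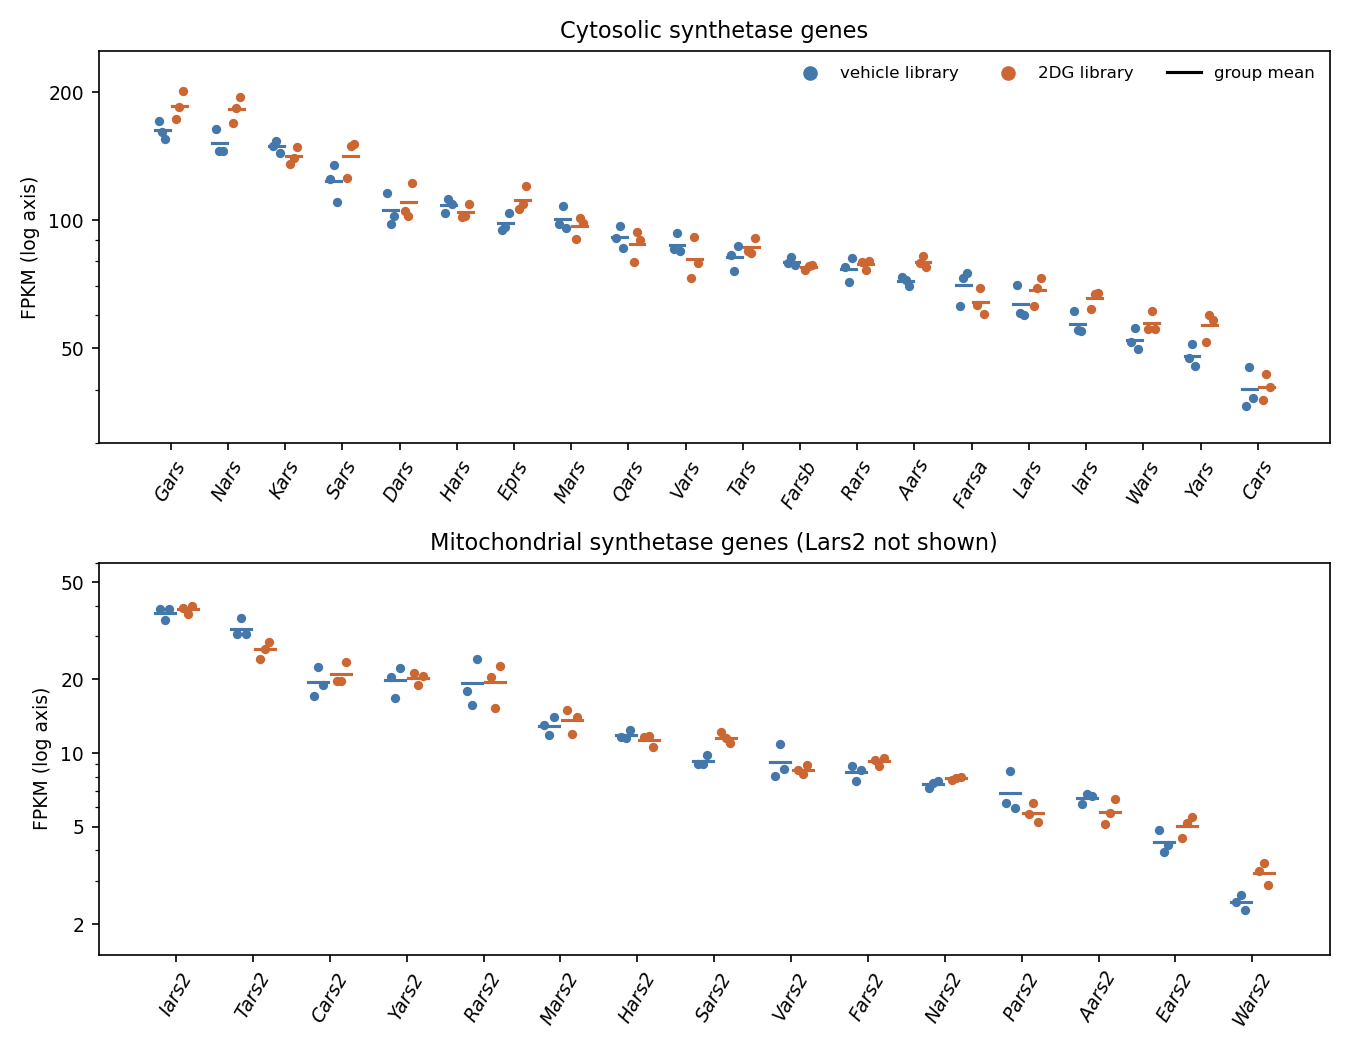
FPKM on a log axis for each cytosolic gene (top) and mitochondrial gene (bottom), ordered by mean level, with 1 point per library (vehicle blue, 2DG orange) and a line for the group mean of 3 libraries. Cytosolic genes sit between 36.6 FPKM (Cars, vehicle 1) and 201 FPKM (Gars, 2DG 3), and mitochondrial genes other than Lars2 between 2.28 FPKM (Wars2, vehicle 3) and 39.9 FPKM (Iars2, 2DG 3).

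Among cytosolic genes the values in 2DG libraries were more often above than below those in vehicle libraries. The log2 fold change was above 0 for 13 of 20 and below 0 for 7, against 47.9% above 0 among all tested loci. With any 1 library left out, 12 to 14 of 20 were above 0. With FPKM sums equalized outside small RNA genes 15 of 20 were, and there the median of all tested loci was 0.04. In the main fit the cytosolic median was 0.07, beside -0.01 over all tested loci. The log2 fold changes ran from -0.13 for Farsa to 0.27 for Nars. For 6 of 20 genes (30%) every 2DG library was above every vehicle library, which held for 11.9% of all tested loci. None of the 20 had every 2DG library below every vehicle library, which held for 11.8% of loci. None of these 6 passed the test, and by exact permutation of 3 against 3 libraries the smallest p for one gene is 0.1.

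Nars (chromosome 18, 64499647 to 64516652, GRCm38) had the largest difference of the cytosolic genes. It was at 164, 145 and 145 FPKM in vehicle libraries 1 to 3 and at 169, 183 and 195 FPKM in 2DG libraries 1 to 3. The groups did not overlap, although vehicle 1 came within a few FPKM of 2DG 1, and the log2 fold change was 0.27 ± 0.09 (SE, limma adjusted p = 0.18). Yars (chromosome 4, 129189760 to 129219607) was at 47.4, 51.2 and 45.5 FPKM under vehicle against 51.8, 60.02 and 58.2 FPKM under 2DG. Its highest vehicle library lay just under its lowest 2DG library, with a log2 fold change of 0.23 ± 0.09 (SE, limma adjusted p = 0.22).

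Iars, whose enzyme is part of the multi-synthetase complex in the cytosol, was at 61.2, 55.1 and 55.1 FPKM under vehicle against 62.0, 67.2 and 67.6 FPKM under 2DG (log2 fold change 0.20 ± 0.08 SE, limma adjusted p = 0.25). Here too replicate 1 libraries of the groups were close and the other libraries were apart. Eprs, for the fused enzyme of the same complex, was at 94.8, 96.2 and 104 FPKM under vehicle against 106, 109 and 120.1 FPKM under 2DG. Gars was at 171, 161 and 155 FPKM under vehicle against 173, 184 and 201 FPKM under 2DG. Aars, for alanine, was at 73.6, 72.4 and 70.1 FPKM under vehicle against 79.3, 82.2 and 77.5 FPKM under 2DG. These last 3 genes had groups that did not overlap and log2 fold changes of 0.18, 0.19 and 0.14, with limma adjusted p of 0.30, 0.30 and 0.32. The locus of Aars in the table also names Exosc6, an RNA exosome gene on the same strand, so its value belongs to both.

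Sars, for serine, had as large a log2 fold change as Iars (0.20) but wider spread. It was at 125, 135 and 110.4 FPKM under vehicle against 125, 149 and 151 FPKM under 2DG, so the groups overlapped (limma adjusted p = 0.40). Wars, for tryptophan, had groups that overlapped narrowly and a log2 fold change of 0.13. The lowest gene, Cars, was at 36.6, 45.3 and 38.3 FPKM under vehicle against 37.8, 43.65 and 40.5 FPKM under 2DG, with its libraries intermixed. The other 11 cytosolic genes overlapped as well, with log2 fold changes between -0.13 and 0.11. Of these, Farsa, Vars, Kars, Qars, Mars, Hars and Farsb had values below 0. Lars, Tars, Dars and Rars had values above 0.

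Cytosolic genes were also grouped by complex and by structural class. The 8 genes for enzymes held in the multi-synthetase complex (Dars, Eprs, Iars, Kars, Lars, Mars, Qars and Rars) had a median log2 fold change of 0.05, and 5 were above 0. The 12 outside it had a median of 0.10, with 8 above 0. Synthetases fall into class I and class II by the fold of the catalytic domain. The 9 cytosolic genes of class I had a median of 0.03 and the 10 of class II a median of 0.07, each with 6 genes above 0. No difference between these groupings was tested.

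Promoters were searched for letters known from ATF4 targets. Windows of 300 bases (250 before to 50 after the transcript start, RefSeq, GRCm38.p6) were at hand for 26 of the 36 genes, 12 cytosolic and 14 mitochondrial, matched by symbol; 1 mitochondrial gene had a pair of windows. The motif TGATGNAA, the core of the composite element bound by ATF4 with C/EBP proteins, was searched on both strands. It lay in 5 of 12 cytosolic windows (41.7%) and in 0 of 15 mitochondrial windows, beside 3.97% of all 32851 windows. Of 24 windows of the amino acid response genes described below, 7 (29.2%) held it. The window of Asns held it, those of Mthfd2 and Stc2 did not, and Cth had no window. The E-box CACGTG, bound by MYC among others, lay in 4 of 12 cytosolic windows (Aars, Farsb, Iars and Tars). It lay in 1 of 15 mitochondrial windows (Ears2), and in 7.15% of all windows. A match describes letters in a window and does not show a bound site. The runs with a match in a cytosolic synthetase gene are, 5′ to 3′ on the strand of the gene, with the motif in capitals and Asns, a gene known to be raised by ATF4, for comparison.
Aars, chr8:111033690-111033747: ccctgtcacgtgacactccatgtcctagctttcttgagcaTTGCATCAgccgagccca
Aars, chr8:111033811-111033868: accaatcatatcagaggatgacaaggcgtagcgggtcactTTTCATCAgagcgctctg
Gars, chr6:55037931-55037988: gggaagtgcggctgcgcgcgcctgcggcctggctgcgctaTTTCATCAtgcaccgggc
Iars, chr13:49682097-49682154: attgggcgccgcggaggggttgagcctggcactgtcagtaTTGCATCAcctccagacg
Tars, chr15:11399656-11399713: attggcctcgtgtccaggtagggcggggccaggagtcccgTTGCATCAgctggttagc
Yars, chr4:129189866-129189923: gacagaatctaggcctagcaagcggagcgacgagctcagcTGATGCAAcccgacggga
Asns, chr6:7693215-7693272: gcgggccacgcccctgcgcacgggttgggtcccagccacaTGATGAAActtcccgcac

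In Aars, Iars, Tars and Yars a match lay on or within 15 bases of the start, in Gars 30 bases before it, and the other match of Aars 112 bases before it. The genes of the 5 windows with a match were at log2 fold changes of 0.14 (Aars), 0.19 (Gars), 0.20 (Iars), 0.07 (Tars) and 0.23 (Yars). In 4 of these 5 every 2DG library was above every vehicle library, beside 11.9% of all tested loci. Aars is among the 4, with a value that also belongs to Exosc6. Tars, for threonine, was the exception, at 83.0, 76.0 and 87.0 FPKM under vehicle against 84.8, 83.6 and 90.6 FPKM under 2DG. Of the 7 cytosolic genes with a window and no match (Dars, Eprs, Farsa, Farsb, Kars, Qars and Sars), 1 had groups that did not overlap, Eprs, and their median was -0.04. The 13 mitochondrial genes with a window, Lars2 aside, held no match either, and 10 of them were above 0, 4 had every 2DG library above every vehicle library and their median was 0.07. Aars, Iars and Tars hold CACGTG as well, so the motifs are partly shared by these genes. Gars and Yars hold TGATGNAA without CACGTG. Farsb holds CACGTG without TGATGNAA, and its groups overlapped at a log2 fold change of -0.04. The part of either motif was not tested. Nars, with the largest cytosolic difference, had no window. The promoter runs were chosen after values were seen. This is a description of few genes, without a test.

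Among mitochondrial genes, as among cytosolic ones (65% above 0), differences ran in both directions and were more often above than below 0. No mitochondrial gene passed the test. Without Lars2, 10 of 15 had a log2 fold change above 0 (66.7%, beside 47.9% of all tested loci), with a median of 0.05 and a range from -0.27 for Tars2 to 0.30 for Wars2. Every 2DG library was above every vehicle library for 4 genes (Wars2, Sars2, Fars2 and Nars2; 26.7%, beside 11.9% of loci) and below for 1 (Tars2; 6.67%, beside 11.8%). Wars2, the lowest of the family, was at 2.46, 2.64 and 2.28 FPKM under vehicle against 3.30, 3.55 and 2.90 FPKM under 2DG. Its mean was 32.4% higher with 2DG, a log2 fold change of 0.30 ± 0.12 (SE, limma adjusted p = 0.25), which the added 1 FPKM makes smaller at so low a level (0.39 with 0.1 FPKM added).

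Sars2, the mitochondrial enzyme gene for serine, had the lowest p of the family. It was at 9.07, 9.01 and 9.79 FPKM under vehicle against 12.2, 11.5 and 10.999 FPKM under 2DG, with a clear gap between the groups (log2 fold change 0.29 ± 0.08 SE, limma adjusted p = 0.13). Tars2, for threonine, showed the opposite order, at 30.6, 35.7 and 30.5 FPKM under vehicle against 24.3, 26.7 and 28.5 FPKM under 2DG. Its log2 fold change was -0.27 ± 0.10 (SE, limma adjusted p = 0.20), a mean 17.9% lower. Pars2, for proline, was at 6.26, 8.44 and 5.98 FPKM under vehicle against 5.61, 6.27 and 5.25 FPKM under 2DG, and its groups overlapped (limma adjusted p = 0.47).

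Fars2, for phenylalanine, was at 8.82, 7.66 and 8.54 FPKM under vehicle against 9.37, 8.83 and 9.59 FPKM under 2DG, groups that nearly touched. Nars2, for asparagine, was at 7.19, 7.54 and 7.69 FPKM under vehicle against 7.76, 7.92 and 7.98 FPKM under 2DG, which did not overlap although its log2 fold change was 0.07. The second lowest gene, Ears2, which serves glutamate, overlapped at 4.86, 3.96 and 4.196 FPKM under vehicle against 4.48, 5.17 and 5.49 FPKM under 2DG. Iars2 at the top of the order was at 38.7, 34.9 and 38.7 FPKM under vehicle against 39.2, 37.0 and 39.9 FPKM under 2DG. The remaining 8 genes (Aars2, Cars2, Hars2, Mars2, Pars2, Rars2, Vars2 and Yars2) overlapped between groups, with log2 fold changes from -0.22 for Pars2 to 0.11 for Cars2.

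Lars2, for the mitochondrial leucine enzyme (chromosome 9, 123366927 to 123462666), stood apart from the family. It was listed at 495, 12225 and 5438 FPKM in vehicle libraries 1 to 3 and at 192, 5854 and 1728 FPKM in 2DG libraries 1 to 3. The replicate 1 library was the lowest and the replicate 2 library the highest in each group, and the groups overlapped. Its highest value was 24.7 times its lowest among vehicle libraries and 30.6 times among 2DG libraries. Among the other 35 genes the highest library was at most 1.61 times the lowest, over all 6 libraries. The log2 fold change of -1.36 ± 1.501 (SE, limma adjusted p = 0.70) was within the spread of Lars2 between libraries of a group. At each replicate number Lars2 was lower with 2DG, though no label says that the numbers pair the libraries. With the replicate number as a block in limma its adjusted p was 0.035. Other values moved with the replicate 1 libraries: the ribosomal RNA precursor Rn45s was listed at 12874 FPKM in vehicle 1, at 7186 FPKM in 2DG 1 and at 0 elsewhere, and small RNA genes held 69.8% and 71.8% of the FPKM sum there against 75.4% to 76.1% in the other 4 libraries. The part of these in the level of Lars2 was not tested. Lars2 was left out of every mean and median over mitochondrial genes.

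**Figure D3:**
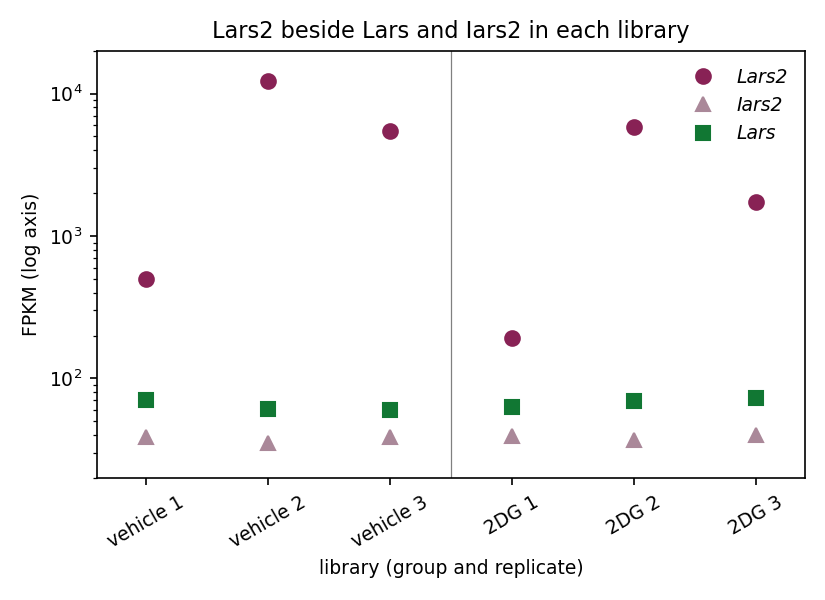
FPKM on a log axis in each of the 6 libraries for Lars2 (circles), Lars (squares) and Iars2 (triangles). Lars2 ranges from 192 to 12225 FPKM with the replicate 1 library lowest in each group, while Lars stays between 59.8 and 73.2 FPKM and Iars2 between 34.9 and 39.9 FPKM.

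The level of a cytosolic gene over that of the mitochondrial gene for the same amino acid varied widely between amino acids. Over 16 pairs without Lars2, in which Eprs and Fars2 each appear in 2, the mean ratio with vehicle ran from 1.53 for Iars over Iars2 to 22.9 for Eprs over Ears2, with a median of 9.41; the median with 2DG was 8.84. The ratios of isoleucine, cysteine, tyrosine and threonine were the lowest, all under 3 with vehicle. For 10 of the 16 pairs the libraries of the groups overlapped. Wars over Wars2 was lower in every 2DG library, at 21.3 ± 0.437 with vehicle and 17.7 ± 1.23 with 2DG (SD, n = 3 each), as was Farsb over Fars2. Ratios higher in every 2DG library were those of Tars over Tars2 (2.56 ± 0.383 and 3.27 ± 0.193), Aars over Aars2 (10.99 and 14.0), Eprs over Pars2 and Iars over Iars2. Each pair with groups apart holds a gene whose own groups did not overlap (Wars2, Fars2, Tars2, Aars, Eprs or Iars). The value of Aars also belongs to Exosc6. How often ratios of other gene pairs lie apart was not counted, so these counts have no background. No ratio was tested.

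**Figure D4:**
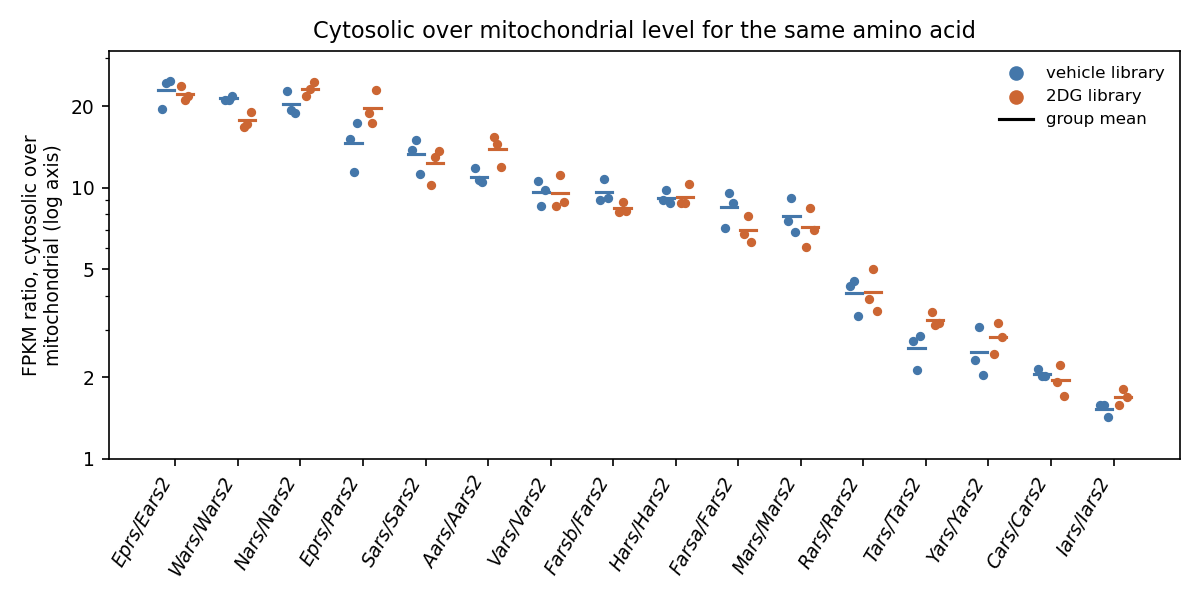
Ratio of cytosolic to mitochondrial FPKM on a log axis for 16 pairs of genes that serve the same amino acid, with 1 point per library (vehicle blue, 2DG orange) and lines for group means. Ratios fall from above 20 for Eprs/Ears2, Wars/Wars2 and Nars/Nars2 with vehicle to 1.53 for Iars/Iars2, and most pairs overlap between groups.

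Genes that work beside the synthetases also did not pass the test. The limma count was 0 of 24 tested partner genes; at an unadjusted p under 0.05, 3 had higher and 1 had lower values. Over all tested loci 2.72% were called, and 9.07% had higher and 8.82% lower values at that unadjusted p, so these counts are near the background. For 8 of the 24 every 2DG library was above every vehicle library, which held for 11.9% of all tested loci. For 1 of the 24 every 2DG library was below, beside 11.8% of loci. The scaffold of the multi-synthetase complex (Aimp1, Aimp2, Eef1e1) had 3 of 3 genes above 0, led by Aimp2 at 0.18. Xpot, which exports tRNA from the nucleus, was at 22.7, 21.4 and 25.2 FPKM under vehicle against 26.8, 28.1 and 29.2 FPKM under 2DG (limma adjusted p = 0.16). Among 6 genes of proofreading, amidation and formylation of charged tRNA the largest difference was that of Qrsl1, a subunit of the mitochondrial amidotransferase that makes glutaminyl-tRNA, with a log2 fold change of 0.38 (limma adjusted p = 0.14). Mitochondrial translation factors had 2 of 9 genes above 0 and a median of -0.08. Mrrf, the ribosome recycling factor, was at 0.45 (limma adjusted p = 0.12) and Gfm2 at -0.27 (limma adjusted p = 0.20). Of 5 cytosolic elongation factor genes, 4 were above 0, with a median of 0.08, and Eef1b2 had the largest difference at 0.22 (limma adjusted p = 0.31).

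Of 24 amino acid response genes tested in the same libraries, 4 rose (Cth, Stc2, Asns and Mthfd2), none fell and 20 did not pass, and the median log2 fold change was 0.40. At an unadjusted p under 0.05, 17 had higher values, and for 17 (70.8%) every 2DG library was above every vehicle library. The shares over all tested loci were 2.72% called in either direction, 9.07% higher at that unadjusted p and 11.9% with every 2DG library above. The list was chosen with earlier results of these data known, so its shares describe it and are no independent test. Asns, the asparagine synthetase that makes the amino acid Nars attaches, was at 68.0, 47.1 and 48.6 FPKM under vehicle against 106, 122 and 133 FPKM under 2DG. It rose by 1.14 ± 0.16 on the log2 scale (SE, limma adjusted p = 0.017). Mthfd2, of mitochondrial folate metabolism, was at 106, 91.4 and 89.8 FPKM under vehicle against 141, 148 and 146 FPKM under 2DG and rose by 0.60 ± 0.09 (SE, limma adjusted p = 0.018). Cth, of cysteine synthesis, rose by 2.03, and Stc2, a secreted glycoprotein gene, by 2.08. Stc2 was at 0.293, 0.960 and 1.08 FPKM under vehicle against 5.04, 9.67 and 5.16 FPKM under 2DG. Its vehicle mean of 0.778 FPKM lay under the filter, so it was tested only because of its 2DG libraries. With a minimum mean of 5 FPKM it was not fitted. The mRNA of Atf4 itself was at 177, 196 and 187 FPKM under vehicle against 230.0, 290 and 203 FPKM under 2DG, short of the threshold (limma adjusted p = 0.23).

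The number of calls changed when single libraries were left out, while the log2 fold changes stayed close to those above. The count was 1 without vehicle replicate 2, 2 without vehicle replicate 3, 2 without 2DG replicate 2 and between 3 and 5 without any other single library. Cth was called in each of these fits (highest adjusted p over all alternatives 0.029). Asns was lost when vehicle replicate 2, vehicle replicate 3 or replicate 2 of 2DG was left out (limma adjusted p = 0.0577, 0.0534 and 0.0654), at log2 fold changes of 1.05 to 1.13. Stc2 was lost without vehicle replicate 2 (adjusted p = 0.0542, log2 fold change 2.16), and Mthfd2 without any single library but vehicle replicate 1 (adjusted p = 0.0579 to 0.0726, log2 fold change 0.55 to 0.62). With libraries rescaled to an equal FPKM sum Mthfd2 was lost as well (adjusted p = 0.229). The difference between this list and the synthetase genes was not tested.

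**Figure D5:**
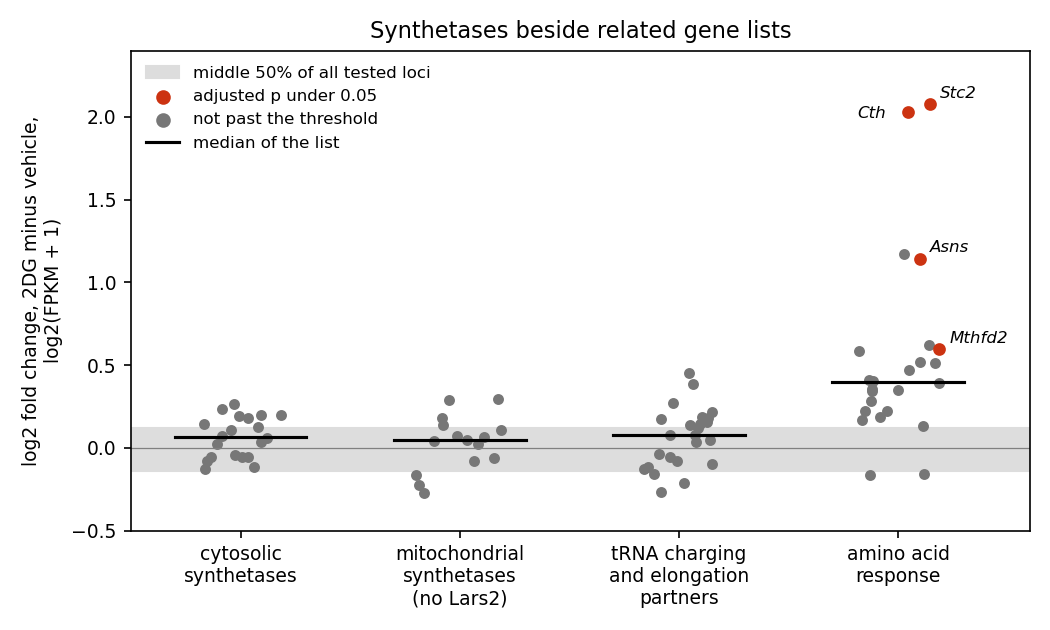
Log2 fold change of FPKM + 1 (2DG minus vehicle) for 20 cytosolic and 15 mitochondrial synthetase genes, 24 partner genes and 24 amino acid response genes, 1 point per gene, with a line at each median, red for an adjusted p under 0.05 and a grey band between the quartiles of all tested loci (-0.14 to 0.12). The medians are 0.07, 0.05, 0.08 and 0.40, and the 4 red points are all amino acid response genes.

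Some of these levels may include reads of neighbours, since the use of strand in counting is not given in the sources used here. In GENCODE M21, 10 of the 36 genes share exon bases with another protein-coding gene. The largest shares were those of Iars2 with Rab3gap2 on the opposite strand (22.9% of its exon bases) and of Aars with Exosc6 (14.3%). Hars and Hars2, which lie head to head on chromosome 18, share 195 bases. Mars shares 68 bases with Ddit3, the gene of the stress factor CHOP.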

How the data were processed

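Total RNA of 6 libraries (3 vehicle, 3 2DG) was sequenced, per the labels. The authors deposited one table of FPKM values per locus and library, with gene symbols. Cuffdiff 2.2.1.3, Cuffnorm 2.2.1.1, Cufflinks 2.2.1.0, TopHat2 2.1.0 and the mm10 build are named in the submitters' processing notes. Roles and settings of these tools, strand use and scaling are not given in the sources used. The 75th percentiles of the deposited FPKM were close, at 10.9 to 11.6. The FPKM sums ran from 1.47e+06 (vehicle 1) to 1.96e+06 (vehicle 2). Counts were not used here, so depth is unknown and no count test or interval from counts is given.

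Rows were matched where a symbol, split at commas, equals a gene name. Group means of log2(FPKM + 1) were compared over loci that averaged 1 FPKM or more, with limma 3.58.1 in R 4.3.3 (lmFit, eBayes with a trend), two-sided, adjusted by Benjamini-Hochberg over all 10228 loci; the pseudocount understates changes of low genes. The code was run on simulated data with independent noise and no effects shared within a library, unlike those seen for Lars2 and Rn45s. Gene lists, genes and alternatives were chosen with earlier results of these data known. Values by library are given for genes whose groups do not overlap, the 4 largest differences and the 2 highest and 2 lowest levels of each set, and Lars2. Tars, Atf4 and the promoter runs lie outside this rule, which gave promoters only for genes past the threshold (none), and were chosen after values were seen. Coordinates are those of GENCODE M21 (GRCm38, the assembly mm10 denotes) and promoters those of RefSeq. Protein sequences were not used here, and one further planned promoter motif is not reported. Symbols that the table does not list (Dtd2, Gatb, Pet112) were left out, and Slc7a11 lay under the filter. Figures were drawn with matplotlib 3.10.9. Some marker genes are not reported here.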

Additional observations from a re-analysis of the deposited data

How the results depend on the processing

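Over 17 alternatives (pseudocount 0.1, no filter, a minimum mean of 5 FPKM, scalings, variance settings, the replicate block and libraries left out), 35 of the 36 synthetase genes were never called; 27 kept the sign of their log2 fold change in all of them and 9 did not. Ears2 and Wars2 could not be fitted with a minimum of 5 FPKM. The lowest adjusted p of any gene but Lars2 was 0.083, for Yars with FPKM sums equalized outside small RNA genes. Over fits that leave out 1 library, counts of called cytosolic, mitochondrial and partner genes were 0, amino acid response genes called higher numbered 1 to 5, all loci 52 to 98 higher and 25 to 69 lower, and the medians ran from 0.03 to 0.10 (cytosolic) and 0.01 to 0.09 (mitochondrial).

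Counts over all loci, higher and lower, were 100 and 65 with no filter, 95 and 62 with equal sums, 262 and 214 without small RNA genes, 247 and 199 with robust eBayes and 43 and 28 with replicates 2 and 3 only. Amino acid response genes called higher numbered 7 with quantile normalization, 8 with sums equalized outside small RNA genes, 9 without small RNA genes, 8 with robust eBayes and 2 with replicates 2 and 3 only, where Stc2 (adjusted p = 0.0502) and Mthfd2 (0.0609) were lost. The cytosolic median was 0.12 with replicates 2 and 3 only; with sums equalized outside small RNA genes it was 0.12 and the mitochondrial median 0.10, while the median of all loci was 0.04. The causes were not tested.

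Titles carry the same 3 numbers in each group, but no label says that they pair the samples, and deviations from the group means correlated at -0.05, 0.19 and -0.11 between libraries 1, 2 and 3 of the groups. With the replicate block all loci gave 57 higher and 44 lower, amino acid response genes 2 higher (Asns lost at an adjusted p of 0.0666 and Mthfd2 at 0.0639), and mitochondrial genes 1 lower, Lars2 (log2 fold change -1.36, adjusted p = 0.035), which was lower with 2DG in each same-numbered pair. Depth is unknown, so low genes such as Wars2 carry an error that the files do not state.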
